A study of Mus musculus with 16 samples.

Results

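The TGF-β pathway of KPC1199 pancreatic cancer cells was followed through 10 genes: the ligand genes Tgfb1, Tgfb2 and Tgfb3, the receptor genes Tgfbr1, Tgfbr2 and Tgfbr3, and the Smad genes Smad2, Smad3, Smad4 and Smad7. They were picked by gene symbol from the 56980 named genes of one count table and the 55414 of the other, and each carried the same Ensembl identifier and the same gene length in both. All 10 passed edgeR's filter on low counts in every fit. Tgfbr1, which encodes the type I receptor, and Tgfbr3, which encodes the coreceptor betaglycan, were lower after Sin3B loss in each of the 3 genotype comparisons and lower after IFNγ in both genotypes. Tgfb2 fell to 0.476 times its level with IFNγ in control cells and to 0.461 times in Sin3B-deficient cells, whereas its genotype difference was large in one experiment and not detected in the other.

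TGF-β ligands are made as latent precursors that are held in the matrix and released by integrins, proteases or thrombospondin. The free ligand binds the type II receptor (Tgfbr2), which phosphorylates the type I receptor (Tgfbr1), and betaglycan (Tgfbr3) presents ligand, Tgfb2 above all, to this pair. The activated type I receptor phosphorylates the receptor-regulated Smads (Smad2 and Smad3), which enter the nucleus with the common Smad (Smad4), while Smad7 is an inhibitory Smad induced by the pathway that acts back on the receptor. In pancreatic cancer the pathway is known for restraining early growth and for driving epithelial-mesenchymal transition and matrix production later, and SMAD4 is often lost in the human disease. IFNγ signals through JAK kinases and is known to oppose TGF-β signalling in several cell types.

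KPC1199 is a cell line from a pancreatic tumor of a KPC mouse, whose alleles, mutant Trp53 among them, are switched on in the pancreas by Pdx-cre, so all libraries share them. RNA-seq was made from 16 libraries in 2 experiments. In the untreated experiment 2 libraries carried a control guide (sgCtrL) and 2 carried a guide against Sin3b (Sin3Bsg1), all without cytokine. In the IFNγ experiment each genotype had 3 libraries without IFNγ and 3 libraries with IFNγ at 10 ng/ml for 24 hours. Both genotypes had been infected with lentiCRISPR v2, which carries Cas9 and the guide, and selected with puromycin. Only 1 Sin3b guide was sequenced here, and nothing in the labels says that the replicates came from separate infections, so the p-values measure the spread between these libraries, which may be technical.

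The guide that defines the Sin3Bsg1 libraries is shown because every genotype comparison rests on it. It had 1 exact match in the GRCm39 genome, at chr8:73449982-73450001 on the + strand, in the coding part of exon 1 of the 19 exons of the canonical Sin3b transcript (GENCODE), and the capitals mark the PAM that follows it in the genome.
Sin3Bsg1: tggctcccgctggggtcgttCGG

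Sin3b (ENSMUSG00000031622), the scaffold subunit of a histone deacetylase complex, was read first as a check of the labels. Its level in CPM (counts scaled to library size, here with TMM factors) in the untreated experiment was 88.6 and 83.4 with the control guide and 36.5 and 34.1 with the Sin3b guide. In the IFNγ experiment it was 92.4 ± 3.61 (SD, n = 3) in sgCtrL and 39.1 ± 0.412 in Sin3Bsg1 without IFNγ, and 82.9 ± 2.15 and 35.6 ± 2.04 with IFNγ. The genotypes did not overlap in any of the 3 settings. Whether the remaining transcript came from edited or unedited copies of the locus was not tested, and its reading frame was not read here.

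Libraries held 29683181 to 32311721 estimated counts in the untreated experiment and 18128055 to 27056903 in the IFNγ experiment. A member had between 201 counts (Tgfb2) and 5332 counts (Tgfbr2) in a library. Replicate 1 of sgCtrL with IFNγ stood apart from its group. The chi-square between its counts and those of the other 2 libraries averaged 24.88 and 20.55 over genes, beside 4.256 between those 2, and results that change without it are given with that value. The 8 ductal epithelial markers (keratins, Epcam, Cdh1, Sox9 and Muc1) were all at 1 CPM or more in each group. Their summed level was higher in Sin3Bsg1 in each setting, at 4776 to 4800 against 6446 to 6493 CPM untreated, 3253 to 3280 against 3509 to 3627 CPM without IFNγ and 3325 to 3875 against 4387 to 4620 CPM with IFNγ. Cdh1 (E-cadherin) went from 136 to 288, 89.6 to 169 and 76.3 to 153 CPM, and the part of these markers in the genotype results was not tested. Of 7 leukocyte markers 1 reached 1 CPM, and none of the 4 endothelial markers did. The 8 fibroblast markers summed to 30.4 to 289 CPM per library, most of it from Pdgfra, with Lum and Fap at 3 counts or fewer in every library. In bulk RNA a lower level in fewer cells and a lower level in every cell cannot be told apart.

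**Figure D1:**
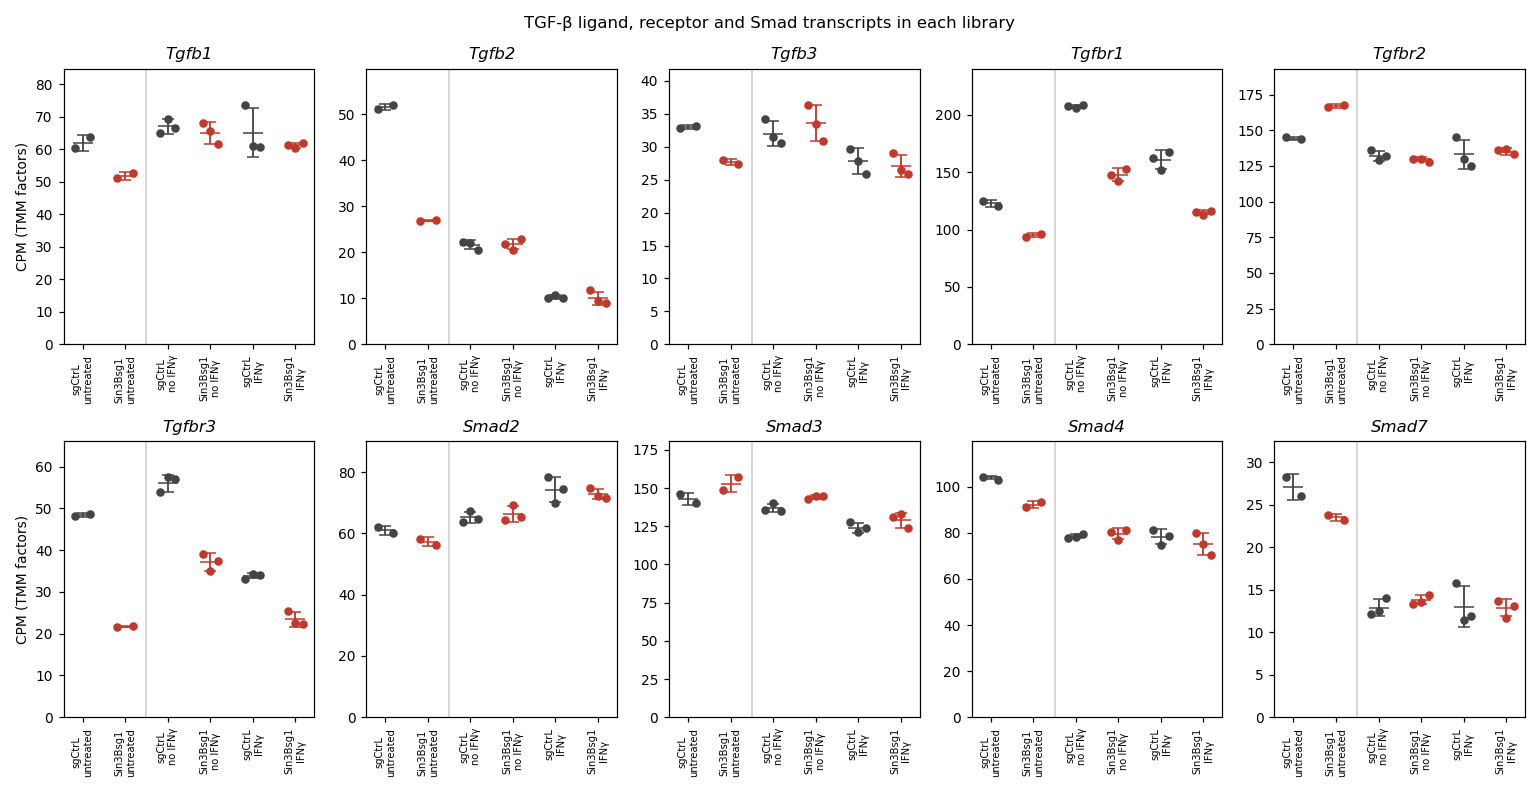
Level of each of the 10 transcripts in every library, in CPM with TMM factors (vertical axis, starting at 0), by group (horizontal axis). Points are libraries, bars are the mean ± SD (n = 2 per group left of the grey line, the untreated experiment, and n = 3 right of it, the IFNγ experiment, each scaled within its own table), grey is sgCtrL and red is Sin3Bsg1. The red points of Tgfbr1 and Tgfbr3 lie below the grey points of the same setting throughout, while those of Tgfb2 do so only in the untreated experiment.

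The first comparison asked how Sin3B loss changed these genes in cells that had received no cytokine. Of the 10 members, 9 passed the test in the untreated experiment, 7 lower and 2 higher in Sin3Bsg1, where 31.1% of the 14589 genes tested passed, 16.0% lower and 15.1% higher. The median log2 fold change of the members was -0.23, and that of all genes tested was 0.0024. The libraries of the 2 genotypes did not overlap for any member, which was also so for 63.3% of all genes tested.

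Among the ligands Tgfb2 (ENSMUSG00000039239, GRCm39 chr1:186354985-186438294, - strand) fell most. Its level was 51.2 and 52.1 CPM in sgCtrL and 26.7 and 27.0 CPM in Sin3Bsg1, a log2 fold change of -0.94 ± 0.054 (SE, adjusted p = 1.29e-09). The knockout libraries thus held 0.521 times the control level. Tgfb1 (ENSMUSG00000002603), the ligand with the highest level per transcript length, was at 60.4 and 63.9 CPM in sgCtrL and 51.1 and 52.8 CPM in Sin3Bsg1 (log2 fold change -0.26 ± 0.046, adjusted p = 4.24e-04). Tgfb3 (ENSMUSG00000021253) was at 32.8 and 33.2 CPM against 28.0 and 27.3 CPM (-0.25 ± 0.063, adjusted p = 0.00518). Both falls were small beside that of Tgfb2, though larger than the spread between replicates. Exons of Tgfb3 overlap those of Ttll5 on the opposite strand in the GENCODE annotation, and since the strand setting of the counting is not given in the sources used here, reads of the pair may not be told apart.

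The receptors moved in different directions. Tgfbr3 (ENSMUSG00000029287, chr5:107249402-107437623, - strand) was at 48.1 and 48.7 CPM in sgCtrL and at 21.6 and 21.8 CPM in Sin3Bsg1, with a log2 fold change of -1.16 ± 0.058 (adjusted p = 2.80e-10). Tgfbr1 (ENSMUSG00000007613, chr4:47353134-47414931, + strand) was at 125 and 121 CPM against 93.9 and 96.4 CPM, with a log2 fold change of -0.37 ± 0.035 (adjusted p = 5.53e-07). Tgfbr2 (ENSMUSG00000032440), the type II receptor that binds ligand first, rose from 145 and 144 CPM to 166 and 168 CPM (0.21 ± 0.029, adjusted p = 3.05e-05). The type I receptor and the coreceptor were therefore lower and the type II receptor higher in the same libraries. The fibroblast markers moved with Tgfb2 and Tgfbr3: their summed level was 100 to 101 CPM in sgCtrL and 30.4 to 33.2 CPM in Sin3Bsg1, 2 of the 8 markers (Pdgfra and Pdgfrb) were at 1 CPM or more in both genotypes, and Lum and Fap were at 3 counts or fewer in each library. Their part in these results was not tested.

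The Smads changed least. Smad4 (ENSMUSG00000024515) was at 104 and 103 CPM in sgCtrL and 91.1 and 93.4 CPM in Sin3Bsg1 (log2 fold change -0.17 ± 0.035, adjusted p = 0.00119). Smad7 (ENSMUSG00000025880) was at 28.2 and 26.0 CPM against 23.8 and 23.2 CPM (-0.20 ± 0.072, adjusted p = 0.0430). Smad3 (ENSMUSG00000032402) was at 146 and 140 CPM against 149 and 157 CPM (0.094 ± 0.034, adjusted p = 0.0459). The calls on Smad7 and Smad3 were close to the threshold of 0.05 and were lost with DESeq2, at adjusted p of 0.186 and 0.173. Smad3 was also lost without replicate 2 of sgCtrL (adjusted p = 0.287) or without replicate 2 of Sin3Bsg1 (0.336), and Smad7 without replicate 1 of sgCtrL (0.301) or replicate 2 of Sin3Bsg1 (0.114). Smad2 (ENSMUSG00000024563), at 62.1 and 60.0 CPM against 58.3 and 56.4 CPM, did not pass (log2 fold change -0.090, 95% interval -0.18 to 0.0039, adjusted p = 0.143).

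The same genotypes were compared in the IFNγ experiment without cytokine. Here 2 of the 10 members passed, both lower in Sin3Bsg1, where 17.2% of the 14913 genes tested passed, 9.33% lower and 7.89% higher. Tgfbr1 was at 208, 206 and 209 CPM in sgCtrL and at 148, 142 and 153 CPM in Sin3Bsg1, a log2 fold change of -0.49 ± 0.047 (adjusted p = 2.45e-06). Tgfbr3 was at 53.8, 57.4 and 57.0 CPM in sgCtrL and at 39.1, 35.0 and 37.5 CPM in Sin3Bsg1, with -0.59 ± 0.061 (adjusted p = 4.66e-06). No library of one genotype reached the range of the other for these genes, which was so for 39.2% of all genes tested. Fibroblast markers again summed lower, at 284 to 289 CPM in sgCtrL and 234 to 247 CPM in Sin3Bsg1, with 4 and 3 of the 8 at 1 CPM or more and Lum, Fap and Thy1 at 3 counts or fewer throughout, and their part was not tested. The sum followed Pdgfra (233 to 194 CPM). Dpt (18.6 ± 1.13 to 10.4 ± 1.66 CPM) and Pi16 (3.74 ± 0.472 to 0.590 ± 0.0634 CPM) were also lower in Sin3Bsg1, while Pdgfrb was higher (30.6 ± 0.194 to 35.0 ± 0.662 CPM).

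The ligands and Smads gave no call in this setting. Tgfb2 was at 22.3, 22.0 and 20.5 CPM in sgCtrL and at 21.8, 20.6 and 22.9 CPM in Sin3Bsg1, and the 2 groups overlapped. Its log2 fold change was 0.012 with a 95% interval of -0.17 to 0.20 (adjusted p = 0.950). For Tgfb1, Tgfb3, Tgfbr2, Smad2, Smad4 and Smad7 the groups overlapped too, with log2 fold changes from -0.044 (Tgfb1) to 0.099 (Smad7). Smad3 did not overlap, at 135 to 140 CPM in sgCtrL and 143 to 145 CPM in Sin3Bsg1, though its difference of 0.073 ± 0.043 did not pass (adjusted p = 0.292). The widest of the intervals in this group of 8 was that of Smad7, -0.14 to 0.34, on 224 to 350 counts per library.

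With IFNγ present the genotype comparison again called 2 of the 10 members, both lower, where 16.5% of genes passed, 7.90% lower and 8.62% higher. Tgfbr1 was at 162, 152 and 168 CPM in sgCtrL and at 115, 113 and 116 CPM in Sin3Bsg1 (log2 fold change -0.49 ± 0.047, adjusted p = 2.92e-06). Tgfbr3 was at 33.2, 34.4 and 34.1 CPM against 25.4, 22.5 and 22.3 CPM (-0.54 ± 0.064, adjusted p = 2.45e-05). Leaving out the sgCtrL replicate that stood apart, or any other of these libraries in turn, kept both calls, with log2 fold changes of -0.526 to -0.453 for Tgfbr1 and -0.604 to -0.504 for Tgfbr3. Fibroblast markers summed to 194 to 195 CPM in sgCtrL and 167 to 178 CPM in Sin3Bsg1. In both, 3 of the 8 were at 1 CPM or more. Pdgfra (165 to 142 CPM) and Dpt (8.04 to 5.53 CPM) were lower in Sin3Bsg1 and Pdgfrb (20.1 to 24.3 CPM) was higher. The part of these markers was not tested. The other 8 members did not pass, with log2 fold changes from -0.087 (Tgfb1, 95% interval -0.23 to 0.058) to 0.060 (Smad3, -0.032 to 0.15).

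Since the same contrast was measured in 2 experiments, the difference between the genotype effects was itself tested, in a joint edgeR fit of the 4 untreated libraries and the 6 libraries without IFNγ (the effect in the IFNγ experiment minus that in the untreated experiment). Of the 10 members 6 passed, 5 with a positive and 1 with a negative difference, where 13.6% of the 15264 genes tested passed, 6.80% in each direction. The largest difference was that of Tgfb2, 0.96 ± 0.091 (adjusted p = 2.61e-07), the gene that was lower in Sin3Bsg1 in the untreated experiment and at about the control level in the other. Tgfbr3 was lower in both, and less so in the IFNγ experiment by 0.57 ± 0.082 (adjusted p = 5.27e-05). Tgfbr2 differed by -0.23 ± 0.048 (adjusted p = 0.00184), being higher in Sin3Bsg1 only in the untreated experiment. These 3 differences passed under all 18 alternatives tried.

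The differences of Tgfb1 (0.22, adjusted p = 0.0401), Tgfb3 (0.33, adjusted p = 0.0259) and Smad4 (0.20, adjusted p = 0.0168) were smaller and passed in 2, 3 and 7 of the 10 fits that left out 1 library. Without replicate 1 of untreated Sin3Bsg1, for example, their adjusted p were 0.188, 0.0676 and 0.104. The difference of Tgfb1 was also lost with DESeq2 (adjusted p = 0.0665). For Tgfbr1 the difference did not pass (-0.11, 95% interval -0.22 to 9.0e-04, adjusted p = 0.197), nor did it for Smad2, Smad3 and Smad7. Sin3b itself fell by like amounts, with a difference of 0.049 and a 95% interval of -0.097 to 0.20. The control cells also differed between the experiments, in levels scaled within each table and not tested. Tgfb2 was at 51.6 CPM on average in untreated sgCtrL and 21.6 CPM in sgCtrL without IFNγ, Tgfbr1 at 123 and 207 CPM, and Smad7 at 27.1 and 12.9 CPM. Summed fibroblast markers were at 100 to 101 and 284 to 289 CPM in these groups. Summed ductal markers were at 4776 to 4800 and 3253 to 3280 CPM. The part of these markers in the differences was not tested. What set the experiments apart cannot be told apart from the experiment itself, since each held its own libraries only.

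The response to IFNγ was then compared within each genotype. The genotype comparisons of this experiment, without and with IFNγ, share libraries with these comparisons, so their values are not independent of each other. In sgCtrL 5 of the 10 members passed, 4 lower and 1 higher, where 30.2% of genes passed, 14.5% lower and 15.7% higher. In Sin3Bsg1 5 members passed, all lower, where 28.4% of genes passed, 12.3% lower and 16.1% higher.

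Tgfb2 fell most of the members in both genotypes. In sgCtrL it went from 22.3, 22.0 and 20.5 CPM to 9.99, 10.8 and 10.0 CPM, a log2 fold change of -1.07 ± 0.093 (adjusted p = 2.31e-07). In Sin3Bsg1 it went from 21.8, 20.6 and 22.9 CPM to 11.7, 9.49 and 8.98 CPM, a log2 fold change of -1.12 ± 0.091 (adjusted p = 1.07e-07). Every treated library lay below every one without IFNγ of its genotype, and such a lack of overlap was found for 41.5% of all genes in sgCtrL and 45.4% in Sin3Bsg1. Tgfb3 was lower with IFNγ in both, by -0.21 ± 0.077 in sgCtrL, which missed the threshold (adjusted p = 0.0541), and by -0.31 ± 0.076 in Sin3Bsg1 (adjusted p = 0.00559). Without the sgCtrL replicate that stood apart, Tgfb3 passed in sgCtrL too (-0.263, adjusted p = 0.0183). Tgfb1, at 65.1 to 69.5 CPM without and 60.6 to 73.8 CPM with IFNγ in sgCtrL, did not pass (-0.046, adjusted p = 0.663), and its highest value came from that same replicate, without which it passed at -0.154 (adjusted p = 0.0334). In Sin3Bsg1 Tgfb1 did not pass (-0.089, adjusted p = 0.372) except with library sizes alone (-0.175, adjusted p = 0.0468).

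The receptors that were lower after Sin3B loss were also lower after IFNγ. Tgfbr3 went from 53.8, 57.4 and 57.0 CPM to 33.2, 34.4 and 34.1 CPM in sgCtrL (log2 fold change -0.72 ± 0.061, adjusted p = 1.81e-07). In Sin3Bsg1 it went from 39.1, 35.0 and 37.5 CPM to 25.4, 22.5 and 22.3 CPM (-0.67 ± 0.064, adjusted p = 6.48e-07). Tgfbr1 fell by 0.37 on the log2 scale in both, with standard errors of 0.047 and adjusted p of 1.82e-05 and 1.91e-05. The lowest levels of both genes in this experiment were in the libraries with Sin3B loss and IFNγ together, 115 ± 1.76 CPM for Tgfbr1 and 23.4 ± 1.72 CPM for Tgfbr3, and the highest in sgCtrL without IFNγ, 207 ± 1.22 and 56.0 ± 1.98 CPM. Tgfbr2 did not pass in either genotype (0.011 and 0.061, adjusted p = 0.903 and 0.429), and both values turned negative with library sizes alone, at -0.0585 and -0.0244. The summed fibroblast markers fell alongside, from 284 to 289 CPM to 194 to 195 CPM in sgCtrL and from 234 to 247 CPM to 167 to 178 CPM in Sin3Bsg1, and their part was not tested.

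Of the receptor-regulated Smads one went up and the other down. Smad2 rose in sgCtrL from 63.8, 67.2 and 64.8 CPM to 78.3, 70.1 and 74.4 CPM (0.18 ± 0.052, adjusted p = 0.0136). That call was lost without the replicate that stood apart (0.135, adjusted p = 0.0559), without replicate 1 of sgCtrL without IFNγ (0.0570), and when scaled by library size alone (0.116, adjusted p = 0.0881). In Sin3Bsg1 Smad2 was at 64.3, 69.4 and 65.4 CPM without and 74.9, 72.1 and 71.6 CPM with IFNγ, which did not pass (0.13 ± 0.051, adjusted p = 0.0631) but did when only the 6 libraries compared were fitted (0.133, adjusted p = 0.0455) and, just at the threshold, without replicate 2 of Sin3Bsg1 without IFNγ (0.168). Smad3 fell in sgCtrL from 136, 140 and 135 CPM to 128, 121 and 124 CPM (-0.14 ± 0.043, adjusted p = 0.0207) and in Sin3Bsg1 from 143, 145 and 145 CPM to 131, 133 and 124 CPM (-0.16 ± 0.043, adjusted p = 0.0127). Its call in sgCtrL was lost in 3 of the 6 fits that left out 1 library, with the highest adjusted p of 0.0958 without replicate 2 of sgCtrL without IFNγ. Smad4 and Smad7 gave no call in either genotype, with log2 fold changes of -0.0055 and 0.011 in sgCtrL and -0.082 and -0.098 in Sin3Bsg1. Smad4 was lower with IFNγ in Sin3Bsg1 past the threshold with library sizes alone (-0.168, adjusted p = 0.0220), with upper-quartile factors (-0.152, 0.0339) and without replicate 1 of Sin3Bsg1 with IFNγ (-0.156, 0.0419).

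Whether Sin3B loss altered the response to IFNγ was tested as the interaction of the 2. No member passed with edgeR, where 0.114% of the 14913 genes did (0.0805% higher and 0.0335% lower), and the count of members was 0 at an unadjusted p under 0.05 and 0 with DESeq2 and with limma-voom. The difference between the IFNγ effects in the 2 genotypes was -0.046 for Tgfb2 (95% interval -0.32 to 0.23), 0.054 for Tgfbr3 (-0.13 to 0.24) and -6.4e-04 for Tgfbr1 (-0.14 to 0.14). The intervals of the other 7 members lay between -0.45 and 0.23, both bounds from Smad7, so that small differences in response were not detectable with 3 libraries per group.

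**Figure D2:**
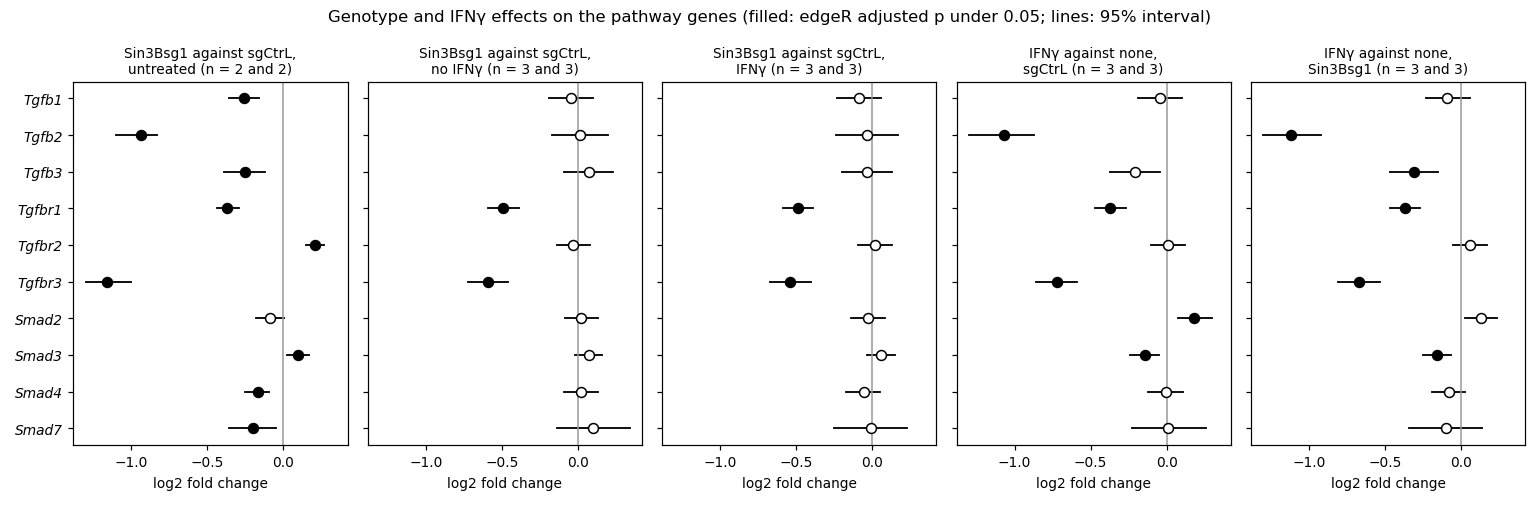
Log2 fold change of each of the 10 genes (horizontal axis) in the 5 comparisons, with 95% intervals as lines and filled points where the edgeR adjusted p was under 0.05. Tgfbr1 and Tgfbr3 have filled points left of zero in all 5 panels, and Tgfb2 does so in the untreated genotype comparison (-0.94) and both IFNγ comparisons (-1.07 and -1.12), with its other 2 points at 0.012 and -0.034.

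Promoters are shown for Tgfb2 and Tgfbr1, members that fell together with IFNγ. RefSeq windows (GRCm38.p6, 250 bases before to 50 after a start site) were found for Tgfb1, Tgfb2, Tgfbr1, Tgfbr2 and Smad3, with 2 windows for Tgfbr1. The 250 bases before the start are printed, 5′ to 3′ on the gene's strand, for Tgfb2 (chr1:186705990-186706239, - strand) and for the upstream window of Tgfbr1 (chr4:47352972-47353221, + strand), with a TATA box (TATAAA) in capitals.
Tgfb2: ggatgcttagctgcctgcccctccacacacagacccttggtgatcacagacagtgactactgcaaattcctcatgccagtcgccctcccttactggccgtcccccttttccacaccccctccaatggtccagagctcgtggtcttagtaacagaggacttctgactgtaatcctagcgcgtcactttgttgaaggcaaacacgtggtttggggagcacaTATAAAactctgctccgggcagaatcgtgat
Tgfbr1: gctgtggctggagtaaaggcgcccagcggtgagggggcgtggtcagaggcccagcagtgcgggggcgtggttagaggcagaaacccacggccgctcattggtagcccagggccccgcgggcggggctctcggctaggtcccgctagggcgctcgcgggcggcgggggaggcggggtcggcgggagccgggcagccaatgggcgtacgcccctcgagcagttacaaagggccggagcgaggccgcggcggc

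The sequences differ in composition, with 53.6% G and C and 8 CpG dinucleotides in the Tgfb2 stretch and 74.8% and 29 in the Tgfbr1 stretch. The Tgfb2 window held TATAAA once, beginning 31 bases before the start site, and the windows of Tgfb1, Tgfbr1, Tgfbr2 and Smad3 did not hold it on either strand. This motif was searched after the sequences were seen, and 13.6% of all 32851 windows held it. The Smad box repeat GTCTAGAC, searched on both strands, was in none of the 6 windows and in 0.213% of all windows.

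Levels were set against each other per transcript length, as TPM, in which counts are divided by the gene length given in the tables and scaled to the same total in every library. In untreated sgCtrL the order ran from Smad4 (63.0 ± 0.585 TPM, n = 2) through Tgfb1 (58.6 ± 2.22), Smad3 (57.7 ± 1.75), Smad2 (52.0 ± 1.32), Tgfbr1 (43.8 ± 1.23), Tgfbr2 (36.6 ± 0.336), Tgfb2 (30.4 ± 0.313), Smad7 (29.5 ± 1.75) and Tgfb3 (20.0 ± 0.156) to Tgfbr3 (16.3 ± 0.123). The libraries of Tgfb1 and Smad3 overlapped, as did those of Tgfb2 and Smad7. In untreated Sin3Bsg1 Smad3 led (61.6 ± 2.52 TPM) and Tgfbr3 was still last (7.32 ± 0.0654 TPM), with Tgfbr1 (33.9 TPM) now under Tgfbr2 (42.4 TPM).

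In sgCtrL without IFNγ Tgfbr1 led with 78.9 ± 1.19 TPM, ahead of Tgfb1 (67.6 ± 1.57) and of Smad2 (59.3 TPM) and Smad3 (59.0 TPM), which overlapped. Smad4 (50.8), Tgfbr2 (35.9), Tgfb3 (20.7), Tgfbr3 (20.2), Smad7 and Tgfb2 (13.6 TPM) followed in that order, with overlap between Tgfb3 and Tgfbr3. In Sin3Bsg1 without IFNγ Tgfbr1 (57.1 TPM) came after Tgfb1, Smad3 and Smad2, overlapping Smad2, and Tgfbr3 (13.6 TPM) was last, overlapping Tgfb2 (13.9 TPM). With IFNγ Smad2 and Tgfb1 led and overlapped in both genotypes, at 64.0 and 62.2 TPM in sgCtrL and 62.9 and 58.6 TPM in Sin3Bsg1. Tgfb2 was last in both, at 6.11 ± 0.194 and 6.01 ± 1.06 TPM (n = 3).

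Tgfb1 was the main ligand transcript in every group. Its share was higher where that of Tgfb2 was lower, which need not mean a rise of Tgfb1, since shares are parts of a total. From untreated sgCtrL to untreated Sin3Bsg1 the share of Tgfb1 went from 53.7 to 60.0% while its level fell from 58.6 to 49.0 TPM. Of the summed TPM of the 3 ligands, Tgfb2 took 27.9 ± 0.400% in untreated sgCtrL and 19.4 ± 0.0899% in untreated Sin3Bsg1 (SD, n = 2). In the IFNγ experiment it took 13.3 ± 0.432% in sgCtrL and 13.6 ± 1.17% in Sin3Bsg1 without IFNγ, and 7.22 ± 0.821% and 7.36 ± 0.861% with IFNγ (SD, n = 3). Tgfb3 kept 18.4 to 21.5% on average in all 6 groups. Tgfb1 took 53.7% in untreated sgCtrL. In the IFNγ experiment Tgfb1 went from 66.3% in sgCtrL without IFNγ to 72.8% in sgCtrL with IFNγ. These shares were not tested, and an exact permutation test with 3 libraries against 3 could not go below 0.10.

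**Figure D3:**
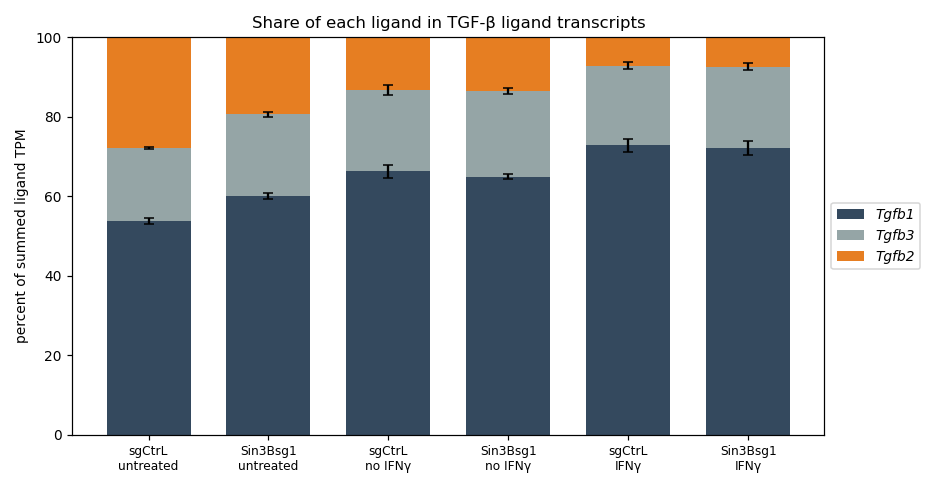
Mean share of each ligand gene in the summed TPM of the 3 ligand genes (vertical axis, percent, starting at 0) in the 6 groups. Error bars are the SD of the Tgfb1 share on the lower boundary and of the Tgfb3 share on the upper one (n = 2 untreated, n = 3 otherwise). The orange Tgfb2 part is 27.9% in untreated sgCtrL. In the IFNγ experiment it shrinks in sgCtrL from 13.3% without IFNγ to 7.22% with IFNγ.

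The pathway around the members was read from 67 further genes in 5 lists: latency and activation of the ligand, coreceptors and receptor modulators, nuclear partners and corepressors, other Smads, and TGF-β target genes. In the untreated experiment 60 of them were tested, of which 6 rose and 26 fell after Sin3B loss, with a median log2 fold change of -0.10 beside 0.0024 for all genes, of which 15.1% rose and 16.0% fell. In the IFNγ experiment 62 were tested, and 9 rose and 9 fell without IFNγ and 9 rose and 7 fell with IFNγ, with medians of 0.0072 and 0.030 beside -0.0090 and 0.0036 for all genes, of which 7.89% rose and 9.33% fell without IFNγ and 8.62% rose and 7.90% fell with it. After IFNγ 9 rose and 23 fell in sgCtrL (median -0.076, beside -6.2e-04 for all genes, of which 15.7% rose and 14.5% fell). In Sin3Bsg1 10 rose and 21 fell (median -0.045, beside 0.0052), where 16.1% of all genes rose and 12.3% fell.

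Genes of ligand latency and activation were mostly lower in the untreated knockout, where 9 of 13 fell and none rose, beside 16.0% of all genes that fell. Ltbp2, a matrix protein of the latent TGF-β binding protein family, fell from 122 ± 1.92 to 61.5 ± 1.53 CPM, Thbs1 (thrombospondin 1, an activator of latent TGF-β) from 227 to 157 CPM, and the urokinase gene Plau from 30.0 to 21.7 CPM. In the IFNγ experiment 4 of 14 fell and 3 rose after Sin3B loss without IFNγ, beside 9.33% and 7.89% of all genes. With IFNγ 2 fell and 2 rose, beside 7.90% and 8.62%. In that experiment Ltbp2 went the other way, from 122 ± 3.68 CPM in sgCtrL to 238 ± 6.88 CPM in Sin3Bsg1 without IFNγ (log2 fold change 0.96 ± 0.056, adjusted p = 1.00e-08). Plau did too, from 9.99 to 15.4 CPM (0.62 ± 0.12, adjusted p = 0.00231), while Thbs1 was again lower, at 246 and 200 CPM. The difference between the experiments was 1.96 ± 0.053 for Ltbp2 (adjusted p = 3.01e-15), the list's largest, and 1.10 ± 0.11 for Plau (adjusted p = 4.71e-07). After IFNγ 8 of 14 fell in each genotype, beside 14.5% of all genes in sgCtrL and 12.3% in Sin3Bsg1. In sgCtrL 1 rose and in Sin3Bsg1 3 rose, beside 15.7% and 16.1% of all genes. Among those that fell were Ltbp4 (17.3 to 10.7 CPM in sgCtrL and 25.7 to 17.2 CPM in Sin3Bsg1) and Itgb8, an integrin subunit that binds latent ligand (7.37 to 4.88 CPM and 5.93 to 4.04 CPM). Thbs1 rose with IFNγ in both genotypes, from 246 to 353 CPM in sgCtrL (adjusted p = 1.56e-07) and from 200 to 334 CPM in Sin3Bsg1 (adjusted p = 1.58e-09), and the interaction did not pass (adjusted p = 0.446).

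Modulators of the receptors were called after Sin3B loss about as often as all genes, with 1 higher and 3 lower of 12 in the untreated experiment (31.1% of all genes), 2 lower of 11 without IFNγ (17.2%), and 1 higher and 1 lower of 11 with IFNγ (16.5%). Smurf1, a ubiquitin ligase that acts on receptors and Smads, fell in all 3 comparisons, by 0.39, 0.26 and 0.24 on the log2 scale. Bambi, a pseudoreceptor that dampens signalling, fell from 10.0 to 4.93 CPM in the untreated knockout (adjusted p = 1.78e-05). It was not called without IFNγ, and its genotype effect differed between the experiments by 0.79 ± 0.18 (adjusted p = 0.00485). After IFNγ 3 of 11 rose and 1 fell in sgCtrL, where 15.7% of all genes rose and 14.5% fell. In Sin3Bsg1 4 rose and 1 fell, where 16.1% of all genes rose and 12.3% fell. Pmepa1, a feedback inhibitor, rose in both (71.1 to 88.5 CPM and 76.8 to 90.1 CPM), and Nedd4l, another ubiquitin ligase of the pathway, fell in both (59.3 to 45.1 CPM and 66.0 to 56.3 CPM).

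Among nuclear partners and corepressors, 2 rose and 4 fell of 11 in the untreated knockout, 1 rose and 1 fell without IFNγ, and 2 rose and 2 fell with IFNγ. Of all genes 15.1% rose and 16.0% fell untreated, 7.89% and 9.33% without IFNγ, and 8.62% and 7.90% with IFNγ. Fosl2, an AP-1 subunit, fell from 118 to 85.7 CPM in the untreated experiment. It was not called without IFNγ, and its genotype effect differed between the experiments by 0.34 ± 0.056 (adjusted p = 2.75e-04). The corepressor gene Tgif2 fell in the untreated knockout (15.9 to 12.7 CPM) and with IFNγ (18.7 to 12.7 CPM). After IFNγ 5 of 11 fell in sgCtrL and 3 of 11 in Sin3Bsg1, beside 14.5% and 12.3% of all genes. The Smad corepressors Ski and Skil fell in both genotypes, Skil from 49.9 to 39.1 CPM and from 54.8 to 45.9 CPM. Of the 4 other Smads, Smad5, a Smad of the BMP branch, fell with IFNγ in both genotypes (76.0 to 65.8 CPM and 78.0 to 62.8 CPM), and Smad9 was higher in Sin3Bsg1 without IFNγ (3.62 to 5.33 CPM) and with IFNγ (2.91 to 4.21 CPM).

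TGF-β target genes did not move as a block. In the untreated knockout 3 of 20 rose and 9 fell, without IFNγ 4 of 22 rose and 2 fell, and with IFNγ 3 rose and 2 fell. The shares of all genes that rose and fell were 15.1% and 16.0%, 7.89% and 9.33%, and 8.62% and 7.90%, in the same order. Ccn2 (connective tissue growth factor) rose with Sin3B loss in all 3 settings, from 48.6 to 106 CPM untreated, from 21.3 to 38.2 CPM without IFNγ and from 17.6 to 39.3 CPM with IFNγ, while the matrix gene Tgfbi fell in all 3, from 23.9 to 16.9 CPM, from 13.8 to 9.64 CPM and from 5.34 to 3.30 CPM. Snai1, a repressor of epithelial genes, fell from 12.2 ± 0.108 to 3.12 ± 0.401 CPM in the untreated knockout (-1.97 ± 0.14, adjusted p = 1.51e-08) and was at 15.3 ± 0.698 and 15.2 ± 2.02 CPM without IFNγ, a difference between the experiments of 1.96 ± 0.17 (adjusted p = 9.50e-08).

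After IFNγ 4 of 22 target genes rose and 8 fell in sgCtrL, and 3 rose and 8 fell in Sin3Bsg1. Of all genes 15.7% rose and 14.5% fell in sgCtrL, and 16.1% rose and 12.3% fell in Sin3Bsg1. Tgfbi fell in both, as given by the levels above (log2 fold change -1.37 ± 0.11 and -1.54 ± 0.11), and the fibronectin gene Fn1 fell from 2286 to 1368 CPM and from 2162 to 1494 CPM. Acta2, the smooth muscle actin gene, rose from 0.314 ± 0.128 to 5.67 ± 0.610 CPM in sgCtrL and from 0.446 ± 0.179 to 5.23 ± 0.263 CPM in Sin3Bsg1.

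**Figure D4:**
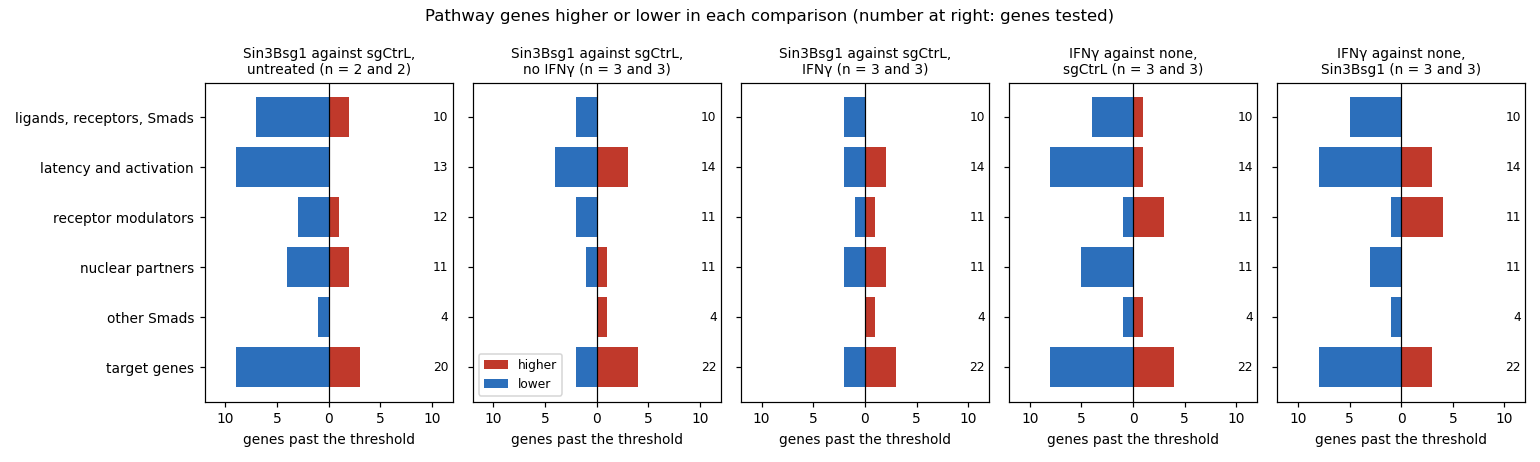
Number of genes of each list that were higher (red, right of zero) or lower (blue, left of zero) at an edgeR adjusted p under 0.05 in the 5 comparisons, with the number of genes tested at the right edge of each panel. The blue bar of latency and activation reaches 9 of 13 genes in the untreated genotype comparison and 8 of 14 in both IFNγ comparisons. The red bar of this list reaches 1 gene in sgCtrL and 3 genes in Sin3Bsg1 in the IFNγ comparisons.

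The genes whose pattern was most like that of a member were found by the root mean square difference of group means, in log2 CPM centred within each experiment, over 6 groups and among 10520 genes, for the 3 members with the widest span in the IFNγ experiment. For Tgfbr3 they were the collagen genes Col16a1 (difference 0.075) and Col3a1 (0.078). For Tgfb2 they were Ntng1 (0.039) and Rnf150 (0.12), and for Tgfbr1 they were Osbpl6 (0.026) and Cerk (0.037). Col16a1 followed Tgfbr3 from 41.9 to 20.2 CPM in the untreated genotypes and from 40.2 CPM in sgCtrL without IFNγ to 17.2 CPM in Sin3Bsg1 with IFNγ. The 6 groups share 2 tables and the same scaling, and no test was made of these likenesses.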

How the data were processed

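RNA-seq libraries (16 in all) of KPC1199 cells formed 6 groups in 2 experiments. The authors deposited estimated counts per gene, not normalized and not whole for 7.86 to 14.5% of values, in a table for each experiment, with the mean of each group. The submitters' processing notes name fastp, HISAT2, StringTie, DESeq2 and mm39, whereas the study's methods name mm9 and featureCounts. Versions, annotation and strand setting are not given in the sources used here. Control columns named for a lacZ guide were taken as sgCtrL, since each table holds only that guide and Sin3Bsg1. Mean columns were left out, as were 324 assembled loci without a gene name in the untreated table (0.615 to 0.677% of counts).

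Counts were rounded and tested with edgeR 4.0.16 in R 4.3.3 (TMM, filterByExpr, quasi-likelihood F-test, two-sided, Benjamini-Hochberg over all genes tested, threshold 0.05). A fit was made for the 4 untreated libraries and another for the 12 of the IFNγ experiment, each with a mean per group. Standard errors are the log2 fold change divided by the root of F. The joint fit of 10 libraries had experiment, genotype and their interaction. The scripts were tested on simulated data, with the limit for the share of changed genes recovered lowered after a first run. No pair of replicates agreed within sampling noise (mean chi-square per gene of 2.435 or more). Same-numbered libraries of different groups had correlations of deviations of -0.029 to 0.15 in the IFNγ experiment. For differently numbered libraries they were -0.16 to 0.085. Numbers were not taken as pairs in the main fits. Intervals cover 95%. Alternatives were DESeq2 1.42.0, limma-voom 3.58.1, other scalings and filters, a replicate block, fits of only the libraries compared, and each library left out.

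The members, lists and markers were chosen with earlier results of these data known. Some genes of the lists and a motif are not reported here by name. From each list at most 4 genes per comparison could be named, those past the threshold with the largest change and a mean of at least 1 CPM. Positions and exon overlaps are from GENCODE vM39 (GRCm39), promoters from RefSeq (GRCm38.p6), and the guide from the study's oligo list. Exons of Tgfb2, Tgfbr1 and Tgfbr2 overlap lncRNA genes on the opposite strand, and those of Tgfbr3 overlap Gm43422 on the same strand, which a stranded count could not separate either. Tables and figures used Python 3.11.15, pandas 2.3.3 and matplotlib 3.10.9.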

Additional observations from a re-analysis of the deposited data

Results flagged for a closer look

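For 6 genes the effect of Sin3B loss differed between the untreated experiment and the IFNγ experiment without cytokine, by a test of the difference itself (edgeR, joint fit). The difference was 0.96 ± 0.091 for Tgfb2 (adjusted p = 2.61e-07), 0.57 ± 0.082 for Tgfbr3 (5.27e-05) and 0.33 ± 0.098 for Tgfb3 (0.0259) on the log2 scale. It was 0.22 ± 0.070 for Tgfb1 (adjusted p = 0.0401, and 0.0665 with DESeq2), 0.20 ± 0.054 for Smad4 (0.0168) and -0.23 ± 0.048 for Tgfbr2 (0.00184). Among all genes 13.6% passed this test. Groups held 2 or 3 libraries, and the gap of 1 library to the others, a measure for groups of 4 or more, was not taken.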

How the results depend on the processing

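The calls on Tgfbr1 and Tgfbr3 in all 5 comparisons and on Tgfb2 in the untreated genotype comparison and both IFNγ comparisons kept their direction and side of the threshold in every alternative run. The number of members with a differing genotype effect between the experiments ran from 3 to 6 when 1 library was left out, against 6. A replicate block left the counts of members as they were (9, 2, 2, 5, 0 and 6) except with IFNγ in sgCtrL, where Tgfb3 was added (6 members, adjusted p = 0.00999). Among 1100 alternative values of members 44 changed sign, each of a member that had not passed.

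With library sizes alone and upper-quartile factors the IFNγ effect became -0.0587 and -0.0386 for Smad7 and -0.0585 and -0.0384 for Tgfbr2 in sgCtrL, and -0.0244 and -0.00847 for Tgfbr2 in Sin3Bsg1. With limma-voom it was -0.0117 for Smad7 in sgCtrL, the genotype effect of Smad7 with IFNγ was 0.0134 and the interaction of Tgfbr1 0.00165, which was 0.00122 with the replicate block. With 1 library left out, the genotype effect with IFNγ ran from -0.0653 to 0.0257 for Smad2, -0.0987 to 0.159 for Smad7, -0.135 to 0.0229 for Tgfb1, -0.16 to 0.0392 for Tgfb2, -0.0885 to 0.0281 for Tgfb3 and -0.025 to 0.0958 for Tgfbr2. Without IFNγ it ran from -0.00884 to 0.0464 for Smad2 and -0.0244 to 0.0504 for Tgfb2. The IFNγ effect in sgCtrL ran from -0.0446 to 0.0197 for Smad4, -0.154 to 0.0949 for Smad7, -0.154 to 0.00364 for Tgfb1 and -0.0638 to 0.0557 for Tgfbr2. The interaction ran from -0.0522 to 0.0111 for Smad3, -0.217 to 0.0487 for Smad7, -0.106 to 0.0564 for Tgfb1, -0.191 to 0.00784 for Tgfb2, -0.0586 to 0.0333 for Tgfbr1 and -0.0324 to 0.0931 for Tgfbr3, and the difference between the experiments from -0.0587 to 0.019 for Smad3. The cause was not tested.

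Over all genes, fits of only the 6 libraries compared called 3996 genes in place of 2568 for the genotype without IFNγ and 1500 in place of 2464 with IFNγ. The interaction, at 17 genes, gave 32 with DESeq2, 110 without a filter on low counts, 5 with limma-voom, 33 without replicate 1 of sgCtrL with IFNγ, and 1 to 7 without replicate 3 of that group or any library of the other 3 groups. Library sizes alone lowered the share of higher genes among IFNγ calls from 52.0 to 34.7% in sgCtrL and from 56.6 to 33.6% in Sin3Bsg1. Depth limits Smad7 and Tgfb2 most, with 224 and 201 counts in their lowest libraries.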
